A study of Drosophila melanogaster with 6 samples.

Results

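Segment polarity genes were followed in early Drosophila melanogaster embryos that developed from germ lines lacking Brakeless. The 10 genes named for the comparison were en, inv, wg, hh, ptc, gsb, gsb-n, nkd, mid and ci. Members were the probe sets whose platform annotation gave exactly 1 gene symbol equal to one of these names. That rule found 9 genes, each with 1 probe set, among 18769 probe sets and 11982 singly named genes. No probe set carried wg as its only symbol, so wg was not analysed here.

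Segment polarity genes are the last tier of the segmentation cascade. Pair-rule transcription factors switch them on in stripes at the end of the blastoderm stage and during gastrulation, and the stripes then set the front and back of every parasegment. Across each parasegment boundary, cells that make Engrailed secrete Hedgehog, the neighbouring cells answer through Patched and Cubitus interruptus by making Wingless, and Wingless in turn maintains Engrailed. Brakeless, the product of sbb, is a nuclear protein that regulates transcription together with Atrophin, a corepressor, and embryos without the maternal protein have segmentation defects.

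The brakeless group comprised 3 arrays of embryos from FRT2R G13 bks278/FRT2R G13 ovoD1 mothers and FRT2R G13 bks278/CyO fathers. The control group comprised 3 arrays of embryos from FRT2R G13/FRT2R G13 ovoD1 mothers and FRT2R G13 fathers, in which the FRT chromosome had not been mutagenized. Both groups therefore came from germline clones on chromosome arm 2R, in which ovoD1 blocks eggs of any other genotype, and all embryos were dechorionated pools aged 2 to 4 h at 25 °C. Pools of the brakeless cross hold embryos with and without a paternal wild-type sbb gene on the balancer, so zygotic genotypes were mixed. The allele is a single mutant line, called strong by the submitters. In such pools, fewer cells that express a gene and less RNA per cell cannot be told apart, and the position of stripes is not measured.

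Levels are log2 values from RMA, a procedure that subtracts background, gives all arrays 1 intensity distribution and summarises the probes of each set. The median over all probe sets was 3.67, and values close to it may hold little beyond background, where RMA compresses differences. The sbb probe set 1635211_at read 5.33, 4.45 and 4.61 in brakeless embryos, against 6.01, 6.71 and 6.06 in control embryos. Those groups did not overlap, but the difference of -1.46 missed the threshold (limma adjusted p = 0.320), and the other 2 sbb probe sets differed by 0.08 and 0.11. Control replicate 3 stood apart from the other 5 arrays. Its mean correlation with them was 0.964, against 0.979 to 0.986 for the others. It lay more than 1 log2 unit below every other array in 740 probe sets (3.94%), while no other array did so in more than 56. The difference of each member is therefore given with and without it, and that of sbb 1635211_at was -1.56 without it.

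None of the 9 segment polarity genes differed between brakeless and control embryos past the test. With limma's moderated test and Benjamini-Hochberg adjustment over all probe sets, each had an adjusted p of 0.998, and 26 of 18769 probe sets (0.139%) passed at 0.05, of which 6 (0.0320%) were higher and 20 (0.107%) lower in brakeless embryos. Without adjustment, 1 of the 9 genes, gsb, had a p under 0.05, as did 4.78% of all probe sets (1.82% in the direction of gsb). In 3 of the 9, namely gsb, ptc and inv, the 3 brakeless arrays lay wholly on 1 side of the 3 control arrays. Over all probe sets 10.1% had groups that did not overlap. The median of the 9 differences, brakeless minus control, was 0.03 on the log2 scale, with 5 positive and 4 negative, and that of all probe sets was 0.002. Without control replicate 3 the median was -0.26 with 6 of 9 negative, against 0.03 for all probe sets, and again none passed, where 33 probe sets (0.176%) did.

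**Figure D1:**
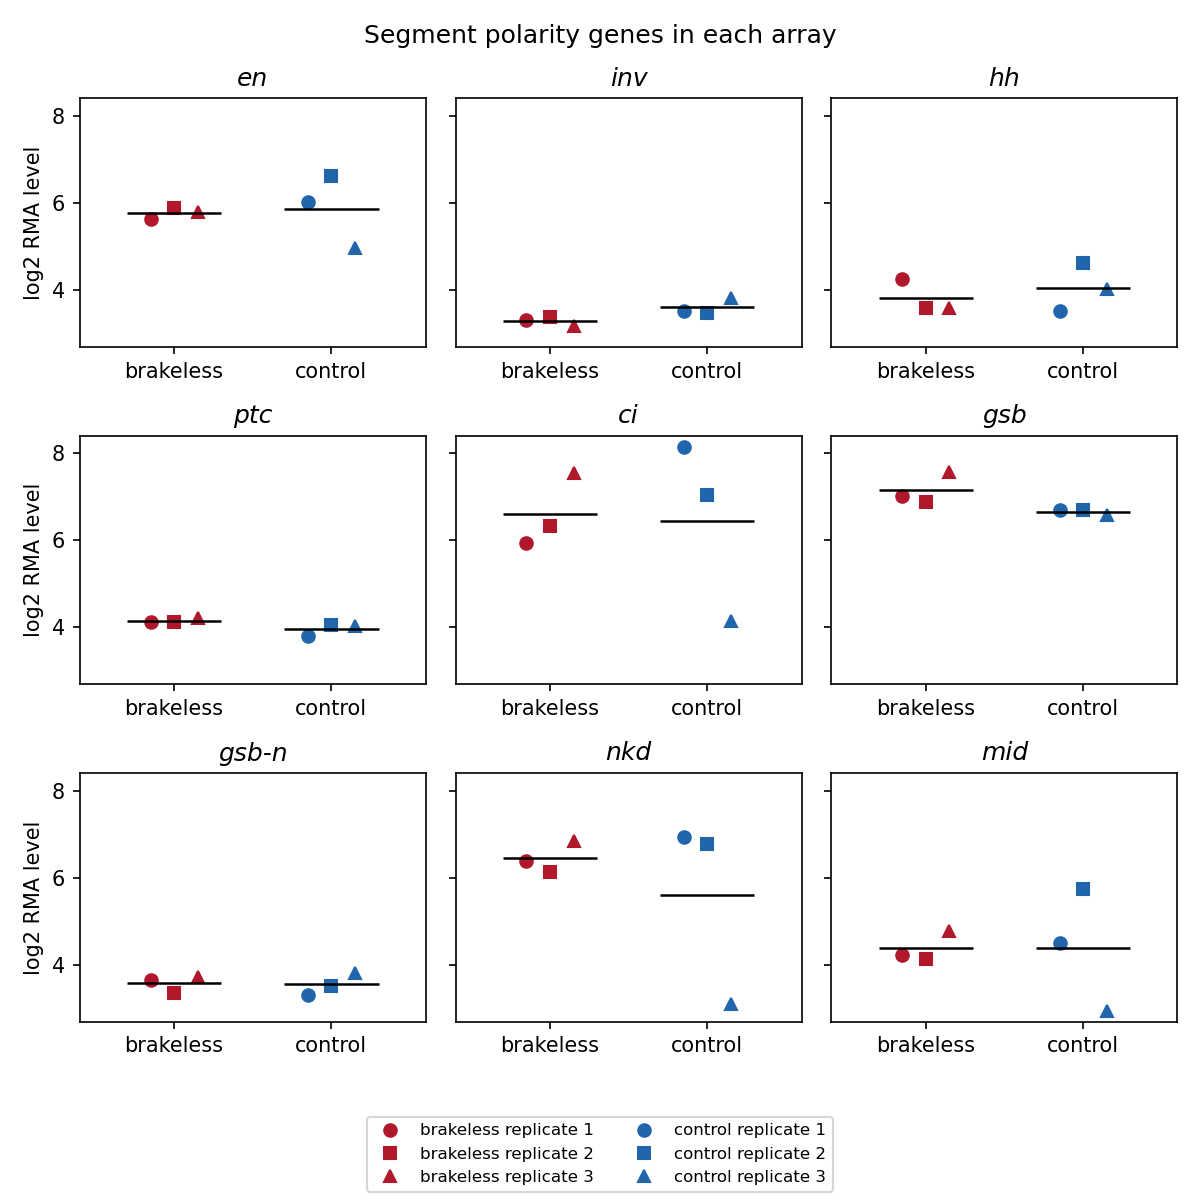
Log2 RMA level (y axis) of the 9 segment polarity genes in each array, with brakeless embryos on the left and control embryos on the right of every panel. Symbols mark the replicate and bars the mean of 3 arrays; control replicate 3 is the lowest array for en, ci, gsb, nkd and mid, and the gsb values of brakeless embryos all lie above those of control embryos.

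The posterior compartment genes en and inv encode closely related homeodomain proteins that are made in the same cells. They lie side by side on 2R, inv at 11474465 to 11509695 and en at 11524006 to 11528210 (Release 6 plus ISO1 MT). On its probe set 1627445_s_at, en read 5.64, 5.89 and 5.79 in brakeless embryos, against 6.01, 6.62 and 4.96 in control embryos. The brakeless arrays lay close together, within 0.25 of each other, and inside the control range of 1.66. The difference was -0.09 (SE 0.41, 95% interval -1.09 to 0.91). Without control replicate 3 the difference was -0.54 (SE 0.21, interval -1.07 to -0.02, limma adjusted p = 0.895, unadjusted p = 0.0455). That fit put 5.55% of all probe sets under an unadjusted p of 0.05.

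For inv (1623909_s_at) the levels were 3.29, 3.38 and 3.16 in brakeless embryos, against 3.52, 3.46 and 3.82 in control embryos. All 3 brakeless arrays were lower, which held for 5.40% of all probe sets in this direction. The difference was -0.32 (SE 0.14, interval -0.66 to 0.01, unadjusted p = 0.0570) and -0.21 without control replicate 3, which was here the highest array. Every one of these values lay near or below the median of all probe sets, so the inv transcript was not shown to be above background. The names of both probe sets end in s_at, the array maker's mark for probes that can match more than 1 transcript, so signal shared between these paralogs was not resolved.

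Hedgehog signalling is represented by its ligand gene hh, its receptor gene ptc and its transcription factor gene ci. Hh, a secreted protein, is bound by Ptc, which otherwise holds the pathway off, and the Gli family protein Ci carries the signal to the nucleus. The level of hh (1626527_at, 3R, 23128169 to 23141906) was 4.24, 3.59 and 3.57 in brakeless embryos, against 3.50, 4.62 and 4.01 in control embryos. The groups overlapped, and the highest and the lowest array were both controls. Group means of hh, 3.80 in brakeless and 4.04 in control embryos, lay close to the median of all probe sets, where RMA compresses differences. The difference was -0.24 (SE 0.33, interval -1.05 to 0.57) with all arrays and -0.26 without control replicate 3. It was 0.05 without control replicate 2, the array with the highest hh value.

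The receptor gene ptc (1639749_a_at, 2R, 8649649 to 8665223) read 4.11, 4.12 and 4.20 in brakeless embryos, against 3.80, 4.05 and 4.04 in control embryos. Brakeless arrays were all higher, as in 4.68% of all probe sets, but the closest arrays were 4.11 for brakeless and 4.05 for control. Its difference of 0.18 (SE 0.11, interval -0.09 to 0.46) was 0.22 without control replicate 3 and 0.10 without control replicate 1. The interval ran from 0.939-fold to 1.37-fold on the scale of these values. They lay close to the median of all probe sets, where RMA compresses differences. The interval therefore does not bound the change of the ptc transcript itself.

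The largest spread of the set was that of ci (1623144_at), on chromosome 4 at 47710 to 57041. It read 5.94, 6.33 and 7.55 in brakeless embryos, against 8.15, 7.05 and 4.15 in control embryos. Control replicate 3 lay 1.79 below the lowest of the other arrays, and control replicate 1 was the highest array. The difference was 0.16 with an interval from -2.41 to 2.73 (SE 1.05), which leaves both a large rise and a large fall open. Without control replicate 3 it was -0.99 (SE 0.57, interval -2.42 to 0.44, limma adjusted p = 0.965).

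Low values in control replicate 3 were shared by the chromosome on which ci lies, a comparison made after the ci values had been seen. Among singly named probe sets above the median level, that array lay more than 1 log2 unit below every other array in 27 of 43 on chromosome 4 (62.8%). On the other arms the share ran from 5.50% on X to 8.89% on 2L. The nearest named gene on each side of ci showed it. Ank, an ankyrin gene, read 8.53 to 9.05 in brakeless embryos, and control replicate 3 read 3.60, against at least 8.50 in the other controls. PlexB, a plexin receptor gene, read 8.10, 7.54 and 8.21 in brakeless embryos, against 8.70, 7.48 and 4.69 in control embryos. CG32006, the next gene beyond Ank, was below the median of all probe sets on every array and did not show it. The median difference of the 43 chromosome 4 probe sets was 0.40 with all arrays and -0.36 without control replicate 3. Without that array 32 of the 43 were negative and 8 had a more negative difference than ci. On the other arms, negative differences ran from 627 of 1383 on X to 696 of 1384 on 2L, with medians of 0.03 and -0.002. Differences more negative than that of ci ran from 28 of 1384 on 2L to 64 of 1948 on 3R.

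**Figure D2:**
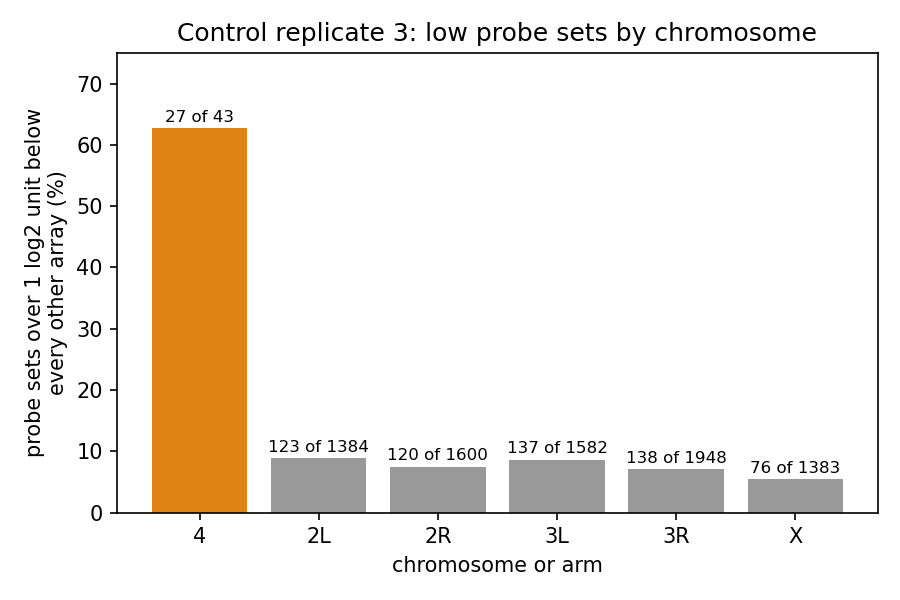
Percentage of probe sets (y axis) for which control replicate 3 lay more than 1 log2 unit below all 5 other arrays, by chromosome or arm (x axis), over singly named probe sets with a mean above the median of all. Chromosome 4, which carries ci, reaches 62.8% (27 of 43), and the other arms lie between 5.50% and 8.89%.

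The gooseberry pair showed the only member with an interval that left out 0 in the fit of all 6 arrays. The genes gsb (1637639_at, 2R, 25061964 to 25064643) and gsb-n (1637031_at, 2R, 25040383 to 25052331) encode Pax family proteins with a paired domain and a homeodomain, gsb acting in the epidermis, where it maintains wg, and gsb-n later in the nervous system. The level of gsb was 7.01, 6.88 and 7.58 in brakeless embryos, against 6.70, 6.70 and 6.57 in control embryos. Every brakeless array was higher than every control array, and the 3 control arrays lay within 0.13 of each other. The difference was 0.50 (SE 0.20, interval 0.02 to 0.98), or 1.41-fold, at an unadjusted p of 0.0449, and 4.37% of all probe sets had a smaller p.

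This difference was 0.46 without control replicate 3 (interval -0.12 to 1.04), and 0.29 without brakeless replicate 3, which read highest. In none of the fits run did it pass, and its limma adjusted p ran from 0.716 to 0.9997. For gsb-n the levels were 3.65, 3.35 and 3.72 in brakeless embryos, against 3.30, 3.51 and 3.82 in control embryos, all near the median of all probe sets. Its groups overlapped, with a difference of 0.03 (SE 0.18, interval -0.40 to 0.46), and 0.16 without control replicate 3.

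The pair-rule gene prd, whose Pax protein is known to activate gsb, read 7.30, 7.09 and 7.87 in brakeless embryos, against 6.29, 7.16 and 6.51 in control embryos. The groups overlapped, since control replicate 2 lay above brakeless replicate 2. The difference was 0.77 (SE 0.30, interval 0.04 to 1.497, limma adjusted p = 0.998, unadjusted p = 0.0420). Without control replicate 3 it was 0.69 (limma adjusted p = 0.934).

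Downstream of these factors, nkd encodes an intracellular antagonist of Wingless signalling that binds Dishevelled, and mid encodes a T-box transcription factor with a close neighbour and paralog, H15. The level of nkd (1630361_at, 3L, 19003741 to 19045449) was 6.39, 6.14 and 6.85 in brakeless embryos, against 6.95, 6.78 and 3.09 in control embryos. Control replicate 3 lay 3.05 below every other array, under that array's median of 3.73, and the other 5 arrays spanned less than 1 log2 unit. The difference was 0.86 (SE 1.04, interval -1.69 to 3.40) with all arrays. It was -0.40 (SE 0.23, interval -0.98 to 0.18, limma adjusted p = 0.965) without control replicate 3, so that 1 array set both its size and its sign.

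For mid (1637867_at, 2L, 5461639 to 5467610) the levels were 4.22, 4.14 and 4.77 in brakeless embryos, against 4.49, 5.75 and 2.94 in control embryos. Control embryos held both the highest and the lowest array, 2.80 apart, while the brakeless arrays lay within 0.63. The difference was -0.02 (SE 0.68, interval -1.69 to 1.65). It was -0.74 without control replicate 3 and 0.66 without control replicate 2, and neither passed (limma adjusted p of 0.952 and 0.825). The paralog H15 read 4.39, 4.33 and 4.67 in brakeless embryos, against 4.36, 4.14 and 4.18 in control embryos, which gave 0.23 (SE 0.13), or 0.21 without control replicate 3, and did not pass.

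**Figure D3:**
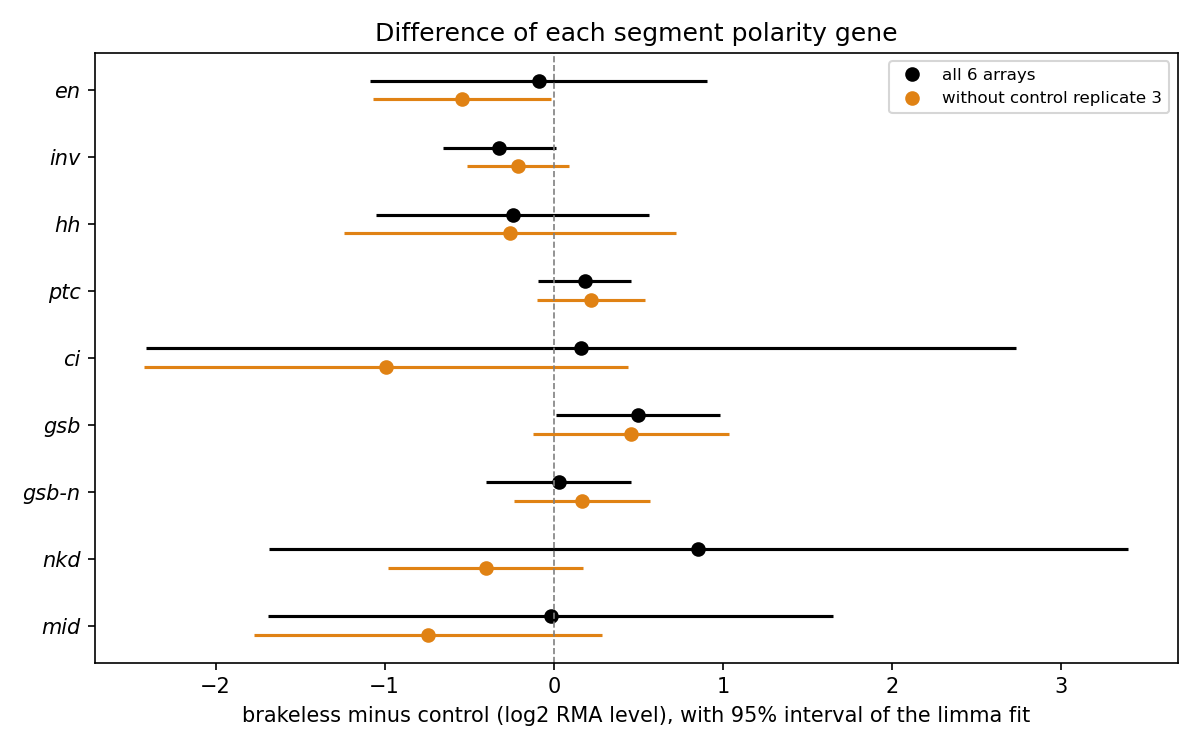
Difference of each segment polarity gene (x axis, brakeless minus control in log2 RMA level) with its 95% interval from the limma fit, using all 6 arrays (black) and without control replicate 3 (orange). With all 6 arrays the intervals of nkd, ci and mid are the widest. The differences of nkd and ci are positive with all arrays (0.86 and 0.16) and negative without control replicate 3 (-0.40 and -0.99).

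Precision differed widely among the members. In the fit of all 6 arrays, intervals of inv, ptc, gsb and gsb-n stayed within a 2-fold change in either direction. They ran from 0.635-fold for the lower end of inv to 1.98-fold for the upper end of gsb. Of these, inv, ptc and gsb-n lay near the median of all probe sets, where RMA compresses differences. Their narrow intervals therefore do not bound the change of the transcripts. For en the interval ran from 0.471-fold to 1.88-fold and for hh from 0.483-fold to 1.48-fold. The hh values also lay close to that median, so the hh interval does not bound the change of its transcript. Intervals of mid (0.310-fold to 3.14-fold), ci (0.188-fold to 6.64-fold) and nkd (0.311-fold to 10.5-fold) leave large changes open. Control replicate 3 was the lowest of the 6 arrays in 5 members, en, ci, gsb, nkd and mid, and lay more than 1 log2 unit below all others in ci, nkd and mid. Over all probe sets it was lowest in 17.3%, and in 25.9% of those above the median level. It lay more than 1 log2 unit lowest in 3.94% of all. Among singly named probe sets above the median level, that share was 8.66% on 3L, which carries nkd, and 8.89% on 2L, which carries mid. On chromosome 4, which carries ci, it was 62.8%. Control replicate 3 was the highest array in inv and gsb-n, whose means lay below the median of all probe sets.

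Outside chromosome 4, probe sets above the median were split by gene length into 5 bins of nearly equal numbers of probe sets. The share with control replicate 3 more than 1 log2 unit lowest was 1.39% in the lowest bin, genes of up to 1309 bp. In the highest bin, genes of 7929 bp or more, the share was 16.6%. The gene nkd spans 41709 bp and falls in the highest bin, as do hh and ptc, and mid and en fall in the next. Control replicate 3 was not the lowest array in hh or ptc. In inv, which spans 35231 bp but lay below the median and outside the bins, it was the highest. The 3′ minus 5′ difference of the actin control probe sets was 1.42 in control replicate 3, against 1.29 to 1.82 in the other arrays. For eIF-4a it was 2.05, against 2.18 to 2.48, and for GAPDH 1.04, against 1.07 to 1.24. The part of length or RNA quality in the member results was not tested.

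By chromosome arm, the 5 members on 2R, the arm that carries sbb and the germline clones, had differences from -0.32 to 0.50 with a median of 0.03, and from -0.54 to 0.46 with a median of 0.16 without control replicate 3. The 4 on other chromosomes ran from -0.24 to 0.86 with a median of 0.07, and from -0.99 to -0.26 with a median of -0.57 without that array. The nearest singly named genes, up to 2 on each side of every member, comprised 27 that were not members themselves. None passed the test (smallest limma adjusted p = 0.638, and 0.802 without control replicate 3), and 1 had an unadjusted p under 0.05. That gene, CG3808 beside nkd, read 7.84, 7.59 and 7.80 in brakeless embryos, against 7.07, 7.44 and 7.02 in control embryos. Its difference was 0.56, and 0.48 without control replicate 3. Beside gsb, gol differed by 0.26 (SE 0.17) and lov by -0.10 (SE 0.62), both with overlapping groups, and by 0.40 and -0.76 without that array.

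Transcripts of the machinery around the members were compared through lists of pathway genes. The pair-rule regulators, whose proteins switch on the segment polarity stripes, had 8 of 10 measured and none past the test in either direction. Their differences were all positive, from 0.01 for odd to 0.77 for prd, with a median of 0.51. Beside prd the largest were 0.63 for opa, a zinc finger regulator (SE 0.75), and 0.60 for slp2, a forkhead gene (SE 0.64). Control replicate 3 was the lowest array in 6 of the 8, and in 25.9% of all probe sets above the median level. Without it 7 of 8 were negative, with a median of -0.16, and prd alone stayed positive at 0.69.

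Wg pathway genes had 8 of 20 measured, with 6 positive, 2 negative and none past the test (median 0.11, and -0.004 without control replicate 3). The 3 with the largest absolute differences were the kinase gene CkIalpha at 0.81 (SE 0.91), por, which lipid-modifies Wingless, at -0.46 (SE 0.81), and the corepressor gene gro at 0.40 (SE 0.60). Without control replicate 3 each of the 3 had the other sign, at -0.24 for CkIalpha, 0.18 for por and -0.24 for gro. Wls, the carrier that brings Wingless to the cell surface, was among the most even, at 9.46, 9.33 and 9.50 in brakeless embryos and 9.23, 9.61 and 9.48 in control embryos. Hh pathway genes had 12 of 15 measured, with 8 positive, 4 negative and none past the test (median 0.21, and 0.04 without control replicate 3). Their 3 largest differences were 1.01 for ttv, a heparan sulfate polymerase needed for Hh movement (SE 0.58), 0.85 for the kinase gene gish (SE 0.83) and 0.51 for rdx, which targets Ci for degradation (SE 1.15). In ttv, gish and rdx control replicate 3 read 5.51, 6.36 and 4.42, against at least 7.22, 8.87 and 7.23 elsewhere. Without it the differences were 0.35 for ttv, -0.13 for gish and -0.88 for rdx. Smo, which transmits the signal released by Ptc, differed by 0.20 (SE 0.33), and by -0.17 without that array.

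**Figure D4:**
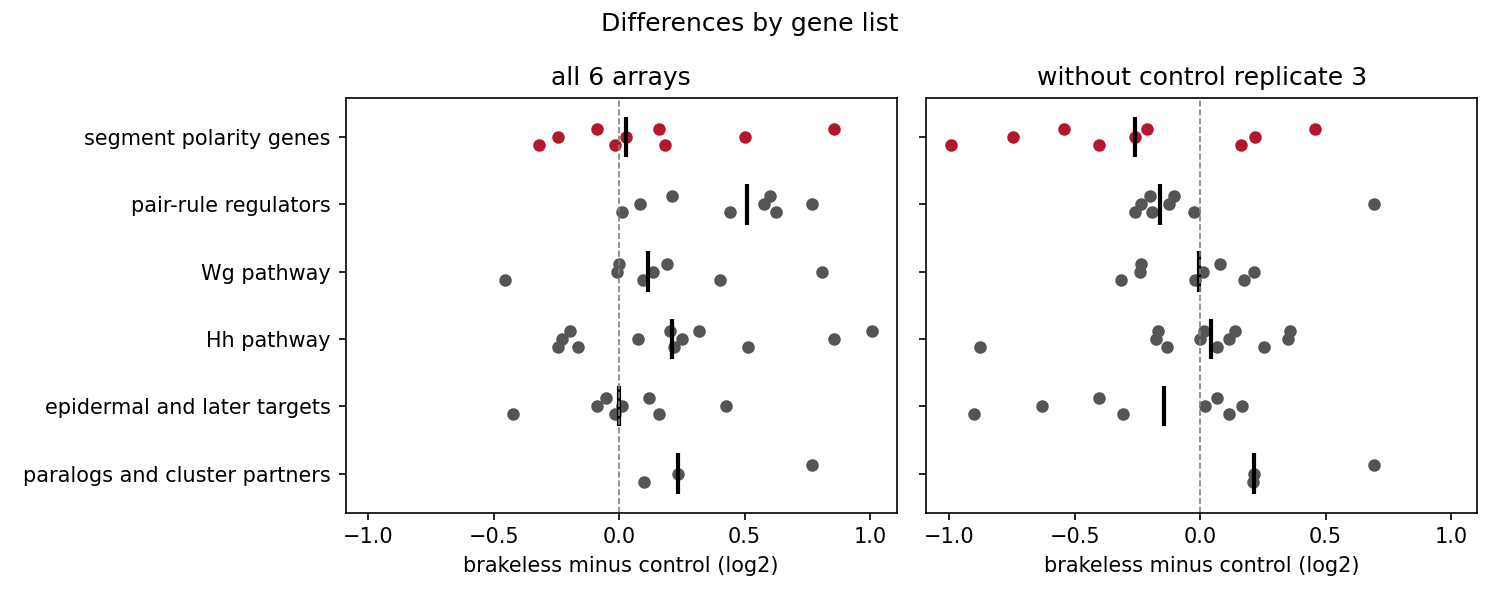
Differences (x axis, brakeless minus control, log2) of single genes in each list, 1 point per gene on its brightest probe set, with bars at the list median, using all 6 arrays (left) and without control replicate 3 (right). The 8 pair-rule regulators are all positive on the left (median 0.51), and 7 of 8 are negative on the right, where prd stands at 0.69.

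Epidermal and later target genes had 8 of 12 measured, with 4 positive, 4 negative, a median of -0.001 and none past the test. Here bowl, an odd-skipped family gene, was at 0.43 (SE 0.68), sr, a tendon cell regulator, at -0.42 (SE 0.20) and vvl, a POU factor gene, at 0.16 (SE 0.13). Every value of sr and vvl lay below the median of all probe sets, so neither transcript was shown to be above background. Without control replicate 3 the list median was -0.14, with bowl at -0.40, sr at -0.63 and vvl at 0.07. Paralogs and cluster partners of the members had 3 of 8 measured, prd and H15 as above and the Wnt ligand gene Wnt6 at 0.10 (SE 0.13), or 0.22 without control replicate 3, close to the median level.

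The genes with the most similar profiles over the 6 arrays were sought for en and hh among 7481 named genes above the median level. For en they were CG9095, tap, a neuronal basic helix-loop-helix gene, and CG8229, with Pearson r of 0.972, 0.963 and 0.960. For hh they were CSN5, a subunit of the COP9 signalosome, Swt1 and Fim, with r of 0.997, 0.971 and 0.967. With 6 arrays many genes reach such values: 44 exceeded 0.9 with en and 34 with hh. CSN5 varied only from 10.6 to 10.8, so these are likenesses of shape and not of size.

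Markers of embryo age and of other cells were read beside the members. The cellularization list, with 8 of 8 measured, averaged 8.24 to 8.65 in brakeless arrays and 8.13 to 8.93 in control arrays. Of its differences 6 of 8 were negative (median -0.39), and 7 of 8 (median -0.57) without control replicate 3, with none past the test. Sry-alpha, a gene of cellularization, read 9.44, 9.58 and 9.74 in brakeless embryos, against 10.5, 10.5 and 10.8 in control embryos. Its groups did not overlap, and the difference was -1.03 (SE 0.15, limma adjusted p = 0.114). Nullo, also needed for cellularization, read 7.28, 7.62 and 7.91 in brakeless embryos, against 8.66, 7.93 and 8.12 in control embryos. It too was lower in every brakeless array than in any control array, with a difference of -0.63 (SE 0.25, limma adjusted p = 0.998). Sry-alpha and nullo were chosen after their values were seen. The 2 positive differences of the list were 0.78 for hb (SE 0.51) and 0.35 for Kr (SE 0.80). Without control replicate 3 they were 0.18 for hb and -0.57 for Kr. Maternal RNA of eggs (8 of 8) averaged 10.7 to 11.1 in brakeless and 10.4 to 10.98 in control arrays, and pole cell and germ plasm genes (4 of 5) averaged 9.95 to 10.6 in brakeless and 9.64 to 10.3 in control arrays. Transcripts of the blastoderm and of the mother were thus both present at this age. Of the maternal RNA differences 5 of 8 were positive (median 0.48, and 0.08 without control replicate 3). All 4 pole cell and germ plasm differences were positive (median 0.40, and 0.24 without that array). None of either list passed, and nos and osk are in both. Muscle genes of older embryos (5 of 8) averaged 3.40, 4.90 and 5.84 in brakeless arrays, against 5.76, 6.42 and 4.41 in control arrays. Brakeless replicate 1 and control replicate 3 were the lowest of their groups in this list. All 5 muscle differences were negative (median -0.80, and -1.29 without control replicate 3), and none passed. Neuron genes (3 of 4) averaged 4.30 to 4.90 in brakeless and 4.19 to 5.04 in control arrays. Hemocyte, trachea and cuticle genes (5 of 5) averaged 3.88 to 4.73 in brakeless and 3.92 to 4.82 in control arrays. All 3 neuron and all 5 hemocyte, trachea and cuticle differences were negative as well, with medians of -0.16 and -0.10, and none passed. Without control replicate 3 all stayed negative, with medians of -0.14 and -0.37. Of these genes nSyb, brp, Hml, Pxn and Cpr49Aa had means near or below the median of all probe sets. Eggshell genes (8 of 8) averaged 3.87 to 4.02 in brakeless and 3.84 to 4.17 in control arrays, close to the overall median. Adult fat body and yolk genes (4 of 4) were also close to it, at 3.71 to 3.73 in brakeless and 3.59 to 3.90 in control arrays. The part of embryo age in the member values was not tested.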

How the data were processed

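RNA of 6 embryo pools was hybridized to Affymetrix arrays. The authors deposited 1 log2 value per probe set and array, made with RMA per the submitters' processing notes. Its software and settings were not stated there. That the scale is log2 follows from the range of values, 1.98 to 14.5. The table held 18952 probe sets, and 183 Affymetrix controls were left out of the tests. Platform annotation gave 1 symbol to 13647 probe sets, several to 402 and none to 4720. Gene numbers matched 13544 single symbols to RefSeq genes of Release 6 plus ISO1 MT, the source of gene positions. Older names in the lists were updated through RefSeq synonyms.

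Brakeless and control arrays were fitted with limma 3.58.1 (lmFit, eBayes, two-sided, no covariate; R 4.3.3), with Benjamini-Hochberg adjustment over 18769 probe sets and a threshold of 0.05. The fit was tested on simulated data. No set test was run. Pairs of members were compared by exact permutation over the arrays, for 3 of 4 listed pairs since wg was not analysed. With 3 against 3 arrays that test cannot give a p under 0.1, so it could not pass and nothing is read from it. The named genes were all members, the 3 largest absolute differences of each list and the 3 genes most like en and hh. Others were chosen after their values were seen. Members and lists were chosen with earlier results of these data known. Replicates were biological by label, and their separate origin is not described further. The number of arrays limits the precision. Figures used matplotlib 3.10.9. Alternatives are in the closing section.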

Additional observations from a re-analysis of the deposited data

How the results depend on the processing

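None of the 9 members passed the test in any of the 12 alternative fits by limma (0 or 1 at an unadjusted p under 0.05). Differences of gsb, ptc and inv kept their sign in all of them. Their groups did not overlap, so leaving out or weighting arrays could not turn the sign, and nothing is read from it. With 1 array left out the differences ranged from 0.29 to 0.64 for gsb, 0.10 to 0.23 for ptc and -0.39 to -0.21 for inv. Such ranges crossed 0 for en (-0.54 to 0.29), hh (-0.52 to 0.045), gsb-n (-0.092 to 0.16), nkd (-0.40 to 1.53), mid (-0.74 to 0.66) and ci (-0.99 to 1.01), and for 2 sbb probe sets, 1624001_at (-0.037 to 0.20) and 1626352_at (-0.084 to 0.23). They also crossed 0 for the en to inv gap (-0.33 to 0.68) and the ptc to ci gap (-0.91 to 1.21). Array weights turned nkd to -0.013, ci to -0.74 and sbb 1626352_at to -0.10. Mid turned to 0.17 after quantile normalization and 0.0071 after centring. The cause was not tested. Over all probe sets the 26 calls became 46 with trend and robust, 74 with array weights, and 0 to 33 with 1 array left out. Leaving out brakeless replicate 1, 2 or 3 gave 0, 0 and 6 limma calls, and control replicate 1, 2 or 3 gave 8, 0 and 33. Before adjustment 662, 532 and 1427 probe sets had p under 0.05 in the 3 fits with 0 calls, brakeless replicates 1 and 2 and control replicate 2. Replicate numbers did not pair the arrays: same-numbered arrays had deviations that correlated at -0.40, -0.23 and -0.32, and none correlated best with its own number. The replicate block gave 0 calls (678 at an unadjusted p under 0.05) and left the member differences the same, such as 0.50 for gsb. Each replicate number holds both groups equally, so the block could not change a difference. The description of control replicate 3 carries another number than its title.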
